A study of Mus musculus with 8 samples.

Results

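ETn and MERVL elements are 2 groups of mouse LTR retrotransposons, and their RNA was followed in whole testis of Dnmt3c mutant and control mice. The families were taken by name from the deposited tables of repeat families. A name containing ETn, or starting with MERVL or MT2, was kept, which gave 13 of the 903 families in the series. The 5 ETn families were MMETn-int, ETnERV-int, ETnERV2-int and ETnERV3-int, which are internal parts, and the LTR RLTRETN_Mm. The 8 others were the internal parts MERVL-int and MERVL_2A-int and the LTRs MT2_Mm, MT2A, MT2B, MT2B1, MT2B2 and MT2C_Mm. All 13 were listed at every age. MusD, the relative of ETn that still codes for proteins, was in no family name under this rule. Whether MusD copies are counted under the ETnERV names was not checked. The term ETn families therefore refers here to the names alone.

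The mice were on a hybrid background of C3H/HeJ and C57BL/6J. Mutants carried an IAP insertion on both copies of Dnmt3c (IAP/IAP), and controls carried the same insertion on 1 copy (IAP/WT), so the disrupted allele was present in both groups. Testes were taken at 16.5 days post coitum (dpc), 10 days post partum (dpp) and 20 dpp, with 1 library per genotype at the earlier ages and 2 per genotype at 20 dpp. The labels do not say whether libraries came from separate animals or from pools, and the spread behind each p-value is therefore that among libraries, which may be technical. Dnmt3c itself was not analysed here.

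An LTR retrotransposon has an internal part, which in an autonomous element codes for the proteins of its life cycle, between 2 long terminal repeats (LTRs), which hold its promoter. ETn elements lack intact genes of their own and are thought to be mobilised by MusD proteins, and their insertions are a known source of new mutations in laboratory mice. MERVL is an older type of endogenous retrovirus known for its burst of transcription in the two-cell embryo, where its LTR MT2_Mm acts as a promoter, and the other MT2 families are related LTRs. DNMT3C is a rodent DNA methyltransferase of the fetal male germ line, known for methylating promoters of young retrotransposons.

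Each library held 57166311 to 155742823 gene reads and 1835855 to 7436007 reads on repeat families, which were 2.34% to 5.52% of counted reads. At 20 dpp the mutant testes lacked most of the signal of late germ cells. All 11 measured markers of pachytene and later spermatocytes fell (median log2 change -7.05), as did all 11 of spermatids (-5.93), while 10 of 11 Sertoli markers and 9 of 12 spermatogonial markers rose (0.98 and 1.02) and 1 spermatogonial marker fell. Summed spermatid markers came to 3366 and 2763 normalised reads in mutant libraries against 96380 and 60396 in controls. Summed Sertoli markers came to 576240 and 646800 against 305090 and 324230. Summed spermatogonial markers were lower in the mutants, at 208140 and 183910 against 227060 and 234240. These sums include Ddx4, the 1 marker that fell (log2 change -2.26). The part of these cell types in the values of the repeat families was not tested. In whole tissue fewer cells of a type and less RNA per cell cannot be told apart.

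At 20 dpp the families went different ways, and 2 of the 13 passed the test, ETnERV3-int higher and ETnERV2-int lower in the mutants. The test was limma on the deposited log2 values, adjusted by Benjamini-Hochberg over all 888 families, with a call at an adjusted p below 0.05. Over all families 11.9% passed, 42 higher and 64 lower, so the count among the 13 was near the background. These families were brought together with their weak response known, and that count is a description. Of the 5 ETn families 1 rose and 1 fell, and of the 8 MERVL and MT2 families 0 passed (1 at an unadjusted p under 0.05, as did 261 of all 888 families). In voom on the recovered reads the same 2 of the 13 passed. The median log2 change was -0.02 over the 13 and 0.13 over all families, and the median size of the change, regardless of sign, was 0.31 and 0.44. Of the 13, 11 changed by less than 0.5 on the log2 scale, against 490 of 888 families (55.2%). The libraries of the 2 genotypes did not overlap for 8 of the 13, against 63% of all families.

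The 2 mutant libraries held 13485 and 11410 normalised reads of ETnERV3-int, and the 2 controls 6991 and 6891. Both mutant libraries stood above both controls, and the gap between replicates was small beside the difference. The log2 change was 0.84 ± 0.13 (SE), 1.79-fold, with a 95% interval of 0.52 to 1.15 and a limma adjusted p of 0.0077. The call was lost without control replicate 1 (adjusted p = 0.0542), without control replicate 2 (0.0515) and in limma without a trend (0.0516), with log2 changes of 0.83 to 0.85 in these fits.

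ETnERV2-int went the other way, with 2636 and 2826 normalised reads in mutant libraries against 5894 and 5230 in controls. Both mutant libraries lay below both controls. It fell by 1.02 ± 0.15 (SE) on the log2 scale, a 2.03-fold lower level, with a 95% interval of -1.37 to -0.68 and a limma adjusted p of 0.0052. It passed whichever of the 4 libraries was left out, with adjusted p-values from 0.0020 to 0.0484. With scaling by total gene reads its log2 change was -0.43 and did not pass (adjusted p = 0.0504). The IDs are names of consensus families, and the sources used here do not give how reads shared by such related families were divided. Part of a family's reads may come from its relatives.

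The other ETn families did not pass, and their values leaned below 0. MMETn-int, the internal part of ETn elements proper, held 6186 and 6587 normalised reads in mutant libraries against 8440 and 7854 in controls. Its libraries did not overlap between genotypes, and its log2 change was -0.35 ± 0.13 (SE; limma adjusted p = 0.12). ETnERV-int had mutant levels of 5342 and 7188 normalised reads and control levels of 8386 and 6968, so the groups overlapped (log2 change -0.30, adjusted p = 0.32). RLTRETN_Mm, the LTR, was scarce, with 855 and 1035 against 1366 and 1089 normalised reads. Its groups lay close together without overlap, and its interval was the widest among the 13, from -0.93 to 0.18.

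Among the 8 MERVL and MT2 families 0 passed, and the log2 changes of MERVL-int, MERVL_2A-int, MT2_Mm and MT2B2 lay between 0.30 and 0.46. MERVL-int, the internal part with gag and pol genes, held 20451 and 26656 normalised reads in mutant libraries against 19558 and 14648 in controls. Mutant replicate 1 stood only just above control replicate 1, and the libraries of each genotype differed by 1.30-fold and 1.34-fold from each other. Its log2 change was 0.46 ± 0.19 (SE, limma adjusted p = 0.15). On the deposited scale its 95% interval of 0.03 to 0.90 left out changes above 1.87-fold, a bound exceeded on total gene reads. Without mutant replicate 1 it passed, with a log2 change of 0.66 (adjusted p = 0.0256). MERVL_2A-int held 15222 and 18669 against 14767 and 12600 normalised reads (log2 change 0.31 ± 0.15, adjusted p = 0.22), again with no overlap and a small gap.

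MT2_Mm, the two-cell stage promoter, had mutant levels of 1828 and 1976 normalised reads and control levels of 1843 and 1274. The lower mutant library lay under the higher control, and the 2 controls differed 1.45-fold (log2 change 0.31 ± 0.23, limma adjusted p = 0.40). The 5 other MT2 LTRs had log2 changes from -0.24 in MT2C_Mm to 0.30 in MT2B2, with adjusted p-values from 0.32 to 0.96. MT2A (-0.02), MT2B1 (-0.03) and MT2B (0.10) had mutant and control libraries interleaved. For MT2A, MT2B and MT2B1 the sign turned when single libraries were left out, with ranges of -0.16 to 0.12, -0.02 to 0.23 and -0.23 to 0.18.

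**Figure D1:**
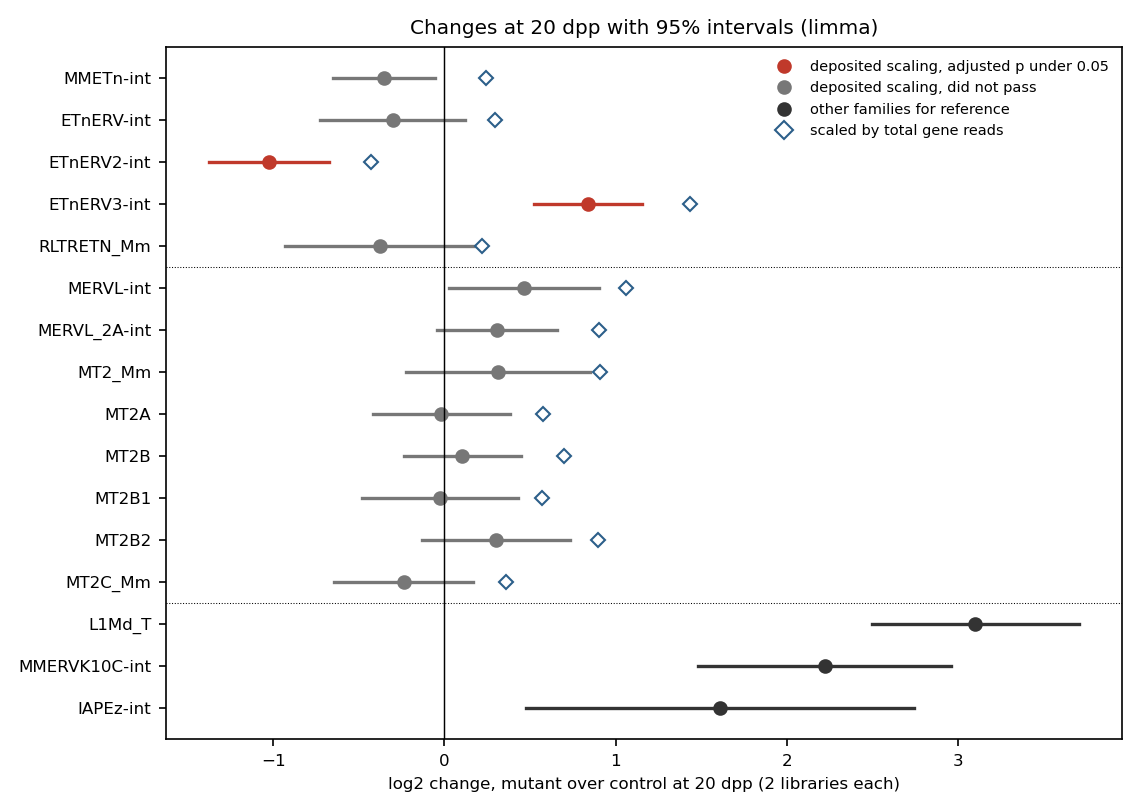
Log2 change of mutant over control at 20 dpp (x axis) for the 13 families and 3 others, with 2 libraries per genotype. Points and bars are limma estimates with 95% intervals. Among the 13 they are red where the adjusted p was under 0.05 and grey otherwise. The 3 others are dark grey whatever their adjusted p. Open diamonds, drawn for the 13 only, are the values scaled by total gene reads. ETnERV3-int (0.84) and ETnERV2-int (-1.02) stand apart from 0 on the deposited scale, and each diamond lies to the right of its point.

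The direction of most of the small changes rested on the scaling. The deposited values were divided by a factor per library that centres the typical gene, whereas scaling by total gene reads moved the median log2 change of all genes from 0.05 to 0.64, and that of all families from 0.13 to 0.72. On that scale 8 of the 13 were called higher and 0 lower, beside 374 families higher and 39 lower among the 888. The 8 were ETnERV3-int (1.43), MERVL-int (1.06), MERVL_2A-int (0.90), MT2_Mm (0.91), MT2B2 (0.90), MT2B (0.70), MT2A (0.58) and MT2B1 (0.57). MMETn-int, ETnERV-int, RLTRETN_Mm and MT2C_Mm turned from negative to positive log2 changes, of 0.22 to 0.36, and did not pass. The 13 shared in a shift of all families there, and against that shift of the median only ETnERV3-int, MERVL-int, MERVL_2A-int, MT2_Mm and MT2B2 lay above 0.72.

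**Figure D2:**
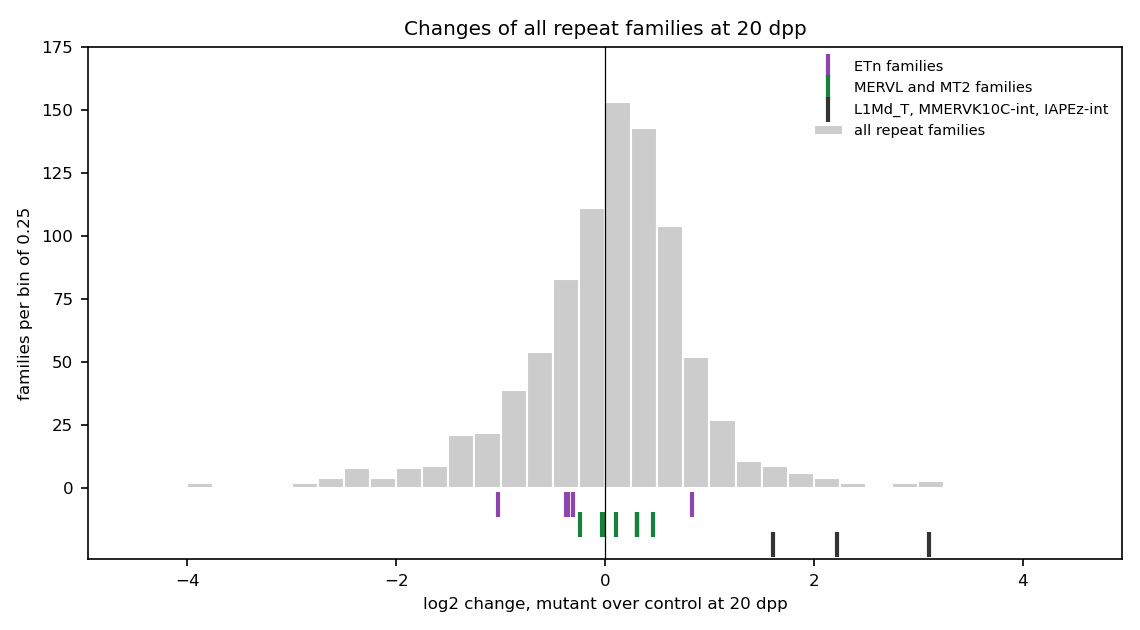
Histogram of the log2 change of mutant over control at 20 dpp for all 888 repeat families in bins of 0.25 (bars), with ticks below for the ETn families, the MERVL and MT2 families, and L1Md_T, MMERVK10C-int and IAPEz-int. The ticks of 11 of the 13 families lie between -0.5 and 0.5, and those of the 3 others lie at 1.61, 2.22 and 3.10.

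A measure that needs no scaling is the ratio of 2 families' reads within 1 library. These pairs were chosen after their values were seen, and no test was made. ETnERV3-int had 5.12 and 4.04 times the reads of ETnERV2-int in the 20 dpp mutants but 1.19 and 1.32 times in their controls. The mutant ratios were thus near those of both genotypes at the earlier ages, 4.22 and 3.55 at 16.5 dpc and 6.04 and 6.25 at 10 dpp (mutant and control), and the 20 dpp controls were the low libraries. ETnERV3-int against MMETn-int gave 2.18 and 1.73 in the 20 dpp mutants, 0.83 and 0.88 in their controls, and 1.75 and 1.77 at 10 dpp. Here too the 20 dpp mutants were nearer to the 10 dpp libraries than to the controls of their own age, but at 16.5 dpc both genotypes were lower still, at 0.51 and 0.47.

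**Figure D3:**
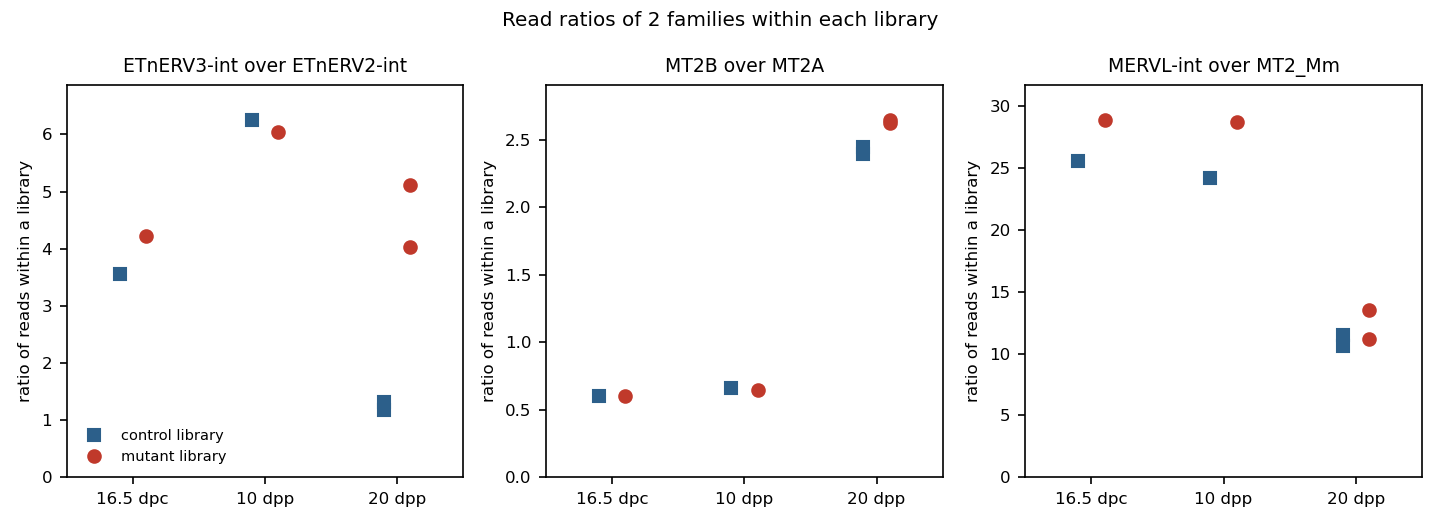
Ratio of the reads of 2 families within each library (y axis, linear from 0) at 3 ages, for 4 mutant and 4 control libraries. ETnERV3-int over ETnERV2-int is low in the 20 dpp controls alone (1.19 and 1.32), while MT2B over MT2A and MERVL-int over MT2_Mm differ by age in both genotypes.

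The changes were also set against those of 3 families with a large response, by refitting the log2 ratio of every family to a reference in the same library. The references were picked for their large changes in these libraries and the 13 for small ones, so a lower value was fixed by that choice and the counts are a description. L1Md_T, a young LINE-1 family, had a log2 change of 3.10, MMERVK10C-int, an ERVK internal part, of 2.22, and IAPEz-int, an IAP internal part, of 1.61 (limma adjusted p = 0.077). Relative to L1Md_T all 13 were lower, by -4.12 (ETnERV2-int) to -2.26 (ETnERV3-int) on the log2 scale, but so were 98.1% of all families. Relative to MMERVK10C-int 12 of 13 passed as lower (background 74.4%), and ETnERV3-int did not (-1.38, adjusted p = 0.071). Relative to IAPEz-int 0 of 13 passed in limma, where 1.01% of all families did, and 1 of 13 had an unadjusted p under 0.05, as did 102 of 887 families.

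These counts rest on the spread of the reference. Within the mutants MMERVK10C-int differed 2.15-fold and IAPEz-int 3.40-fold between replicates. All ratios to one reference share its residual, which gave limma an infinite prior and p-values that are too small. With each family's own spread and no moderation, 0 of 13 passed against any of the 3, and 0 of all 887 families did. At an unadjusted p under 0.05 there were 13 of 13 against L1Md_T (703 of all families). Against MMERVK10C-int there were 10 (408 of all), and against IAPEz-int 0 (48 of all). Against MMERVK10C-int the median log2 value of the 13 was -2.24, and -2.01 and -2.41 without control replicate 1 or 2. Against IAPEz-int it was -1.63, and -2.40 and -0.85 without mutant replicate 1 or 2. With no library left out, the medians over all families were -2.09 and -1.48.

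At 10 dpp the largest difference among the 13 was in MERVL-int. With 1 library per genotype no test was made within this age, and ratios carry exact binomial 95% intervals that cover counting error only. MERVL-int held 21696 normalised reads in the mutant and 17754 in the control, 1.22-fold (1.20 to 1.25). ETnERV2-int was 1.16-fold higher (1.07 to 1.25), MMETn-int 1.13-fold (1.08 to 1.18) and ETnERV3-int 1.12-fold (1.09 to 1.16) in the mutant library. ETnERV2-int and MMETn-int were thus on the other side of 1 than at 20 dpp. The lowest log2 ratio was -0.24 in RLTRETN_Mm, whose interval included 0 and which rested on 212 and 261 reads.

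No family of the 13 met the rule of a 2-fold ratio, an interval without 1 and 50 reads in the pair, which 1.82% of all families met at 10 dpp. In the same pair of libraries MMERVK10C-int was 4.37-fold, IAPEz-int 3.44-fold and L1Md_T 1.77-fold higher in the mutant. MERVL_2A-int, the other MERVL internal part, held 16843 and 16881 normalised reads, a ratio of 1.00 (0.977 to 1.02) in this pair of libraries. Within a library MERVL-int had 1.29 times the reads of MERVL_2A-int in the 10 dpp mutant and 1.05 times in the control. Replicates of MERVL-int at 20 dpp differed more than 1.22-fold within each genotype, so its difference in level at 10 dpp is no larger than that spread. Its ratio to MERVL_2A-int was 1.34 and 1.43 in the 20 dpp mutant libraries and 1.32 and 1.16 in the controls. The 10 dpp values of this ratio lay farther apart than those of either replicate pair.

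At 16.5 dpc the 2 libraries were closer still. The log2 ratios ran from -0.24 in ETnERV2-int to 0.01 in ETnERV3-int, with 12 of 13 below 0 and 9 of 13 intervals without 1. Over all families 552 of 806 ratios were below 0 and 264 of 806 intervals were without 1. The median was -0.12 over the 13 and -0.09 over all families, so the libraries differed by a like amount over families in general. With factors taken over families the value of ETnERV-int was 0.07, that of ETnERV3-int 0.10 and that of MERVL-int 0.07. The rest of the 13 stayed below 0 with those factors. MMETn-int held 15700 and 17058 normalised reads in mutant and control. The 2-fold rule was met by 0 of 13 and by 0.496% of all families.

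**Figure D4:**
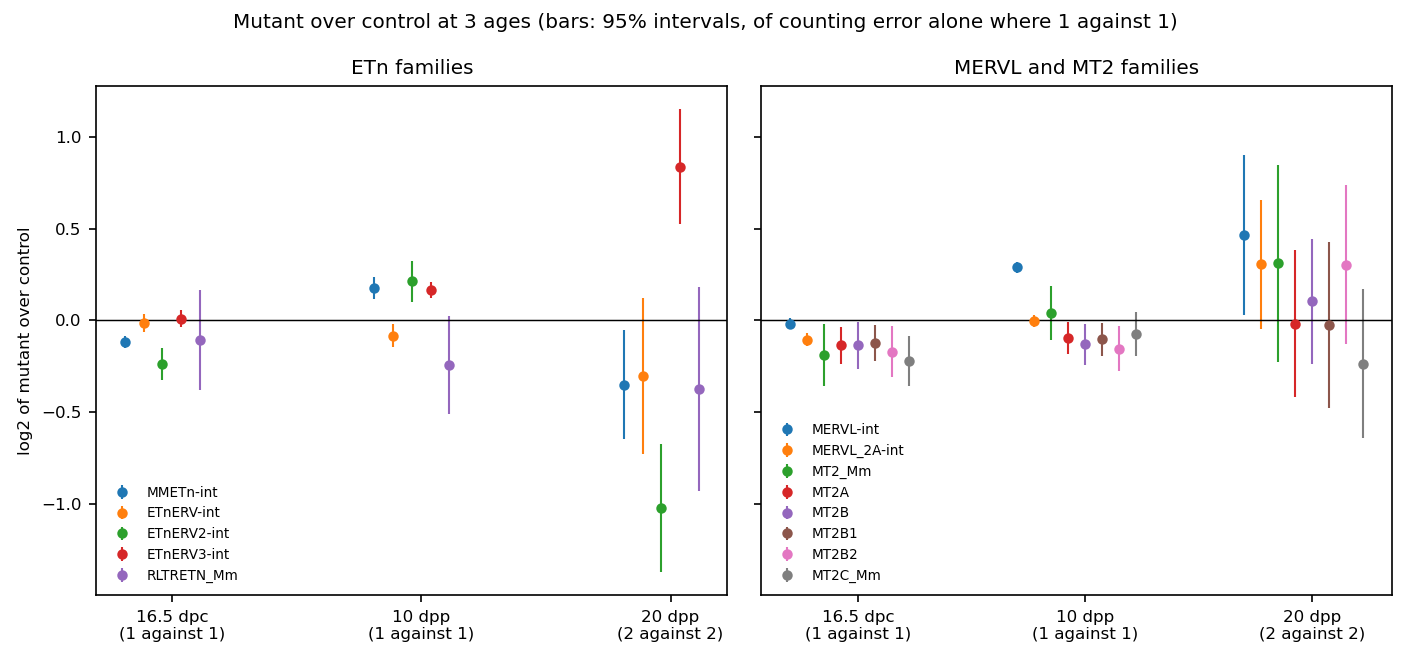
Log2 of mutant over control (y axis) at 3 ages for the 5 ETn families (left) and the 8 MERVL and MT2 families (right). Bars are 95% intervals, of counting error alone at 16.5 dpc and 10 dpp (1 library against 1) and of the limma fit at 20 dpp (2 against 2). ETnERV3-int and ETnERV2-int separate at 20 dpp, and the MT2 LTRs have log2 values from -0.24 to 0.31 at all ages on this scale.

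A genotype difference shared by the ages was tested next. Over the 785 families listed at every age, with age as a block, 0 of 13 passed in limma and 0% of all families did. At an unadjusted p under 0.05 there were 1 of 13, ETnERV3-int, and 42 of all 785 families, and voom also called 0. Log2 changes ran from -0.52 in ETnERV2-int to 0.46 in ETnERV3-int.

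The change of the genotype difference with age was tested directly. Against 10 dpp, 0 of 13 passed in limma (background 1.78%; 3 of 13 and 90 of all 785 families at an unadjusted p under 0.05, and 0 of 13 called by voom). ETnERV2-int came nearest, with its 20 dpp difference lower than its 10 dpp difference by a log2 value of -1.24 ± 0.27 (SE, adjusted p = 0.078), and without mutant replicate 2 it passed (-1.29, adjusted p = 0.0385). Against 16.5 dpc, 0 of 13 passed in limma (background 2.04%; 2 of 13 and 107 of 785 unadjusted, 0 of 13 by voom). ETnERV3-int came nearest with a difference of 0.83 ± 0.23 (adjusted p = 0.14), and it passed without mutant replicate 2 (0.95, adjusted p = 0.0346). On the scale of total gene reads ETnERV3-int passed against 10 dpp (1.28), beside 58 families higher and 8 lower among the 785. Against 16.5 dpc ETnERV3-int, MERVL-int and MERVL_2A-int passed on that scale, beside 101 families higher and 13 lower. These fits assume that the single libraries vary like those at 20 dpp.

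Levels across ages are given as RPM, reads per 1000000 gene reads, and are a description. The ages were scaled apart, and a row of unassigned repeats is in the tables of the earlier ages and not in those of 20 dpp. Whether the tables of the ages were made alike was not tested. MMETn-int was highest at 16.5 dpc, with 261.9 in the control and 240.7 in the mutant, against 66.0 and 73.9 at 10 dpp and 58.4 ± 0.34 and 69.2 ± 1.5 at 20 dpp (SD, n = 2). ETnERV-int followed the same order in the controls, with 105, 64.3 and 55.0 ± 4.7. Both genotypes shared the step from 16.5 dpc to 10 dpp.

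For ETnERV3-int and MERVL-int the order of the libraries depended on the scale. In RPM, a scale on which the median family was 0.72 higher in the 20 dpp mutants (log2), ETnERV3-int in the controls had 123 RPM at 16.5 dpc, 116 at 10 dpp and 49.8 ± 1.7 at 20 dpp, while the mutants had 124, 130 and 135 ± 19. The 20 dpp controls were the low libraries, and the other 6 lay between 116 and 149. MERVL-int in the controls had 242, 270 and 122 ± 19, and in the mutants 238, 328 and 255 ± 42, and the 20 dpp controls were lowest in RPM. MERVL_2A-int gave 209, 257 and 98.0 ± 6.6 in the controls and 194, 255 and 183 ± 22 in the mutants. As a share of family reads, MERVL-int was lower at 20 dpp than before in both genotypes, with 0.386% and 0.527% in mutant libraries against 0.528% and 0.452% in controls, where the range was 0.752% to 0.865% at the earlier ages. ETnERV3-int shares were likewise lower in all 4 libraries at 20 dpp, 0.255% and 0.225% in mutant libraries and 0.189% and 0.213% in controls, where the range was 0.340% to 0.406% before. The genotype difference of MERVL-int did not pass as different between ages on the deposited scale (limma adjusted p = 0.88 against 10 dpp and 0.54 against 16.5 dpc).

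The 7 LTRs had their highest mean RPM in the 20 dpp mutants, on the scale where families in general were higher there. On the deposited scale 0 of the 7 passed at 20 dpp, and RLTRETN_Mm (-0.37), MT2C_Mm (-0.24), MT2B1 (-0.03) and MT2A (-0.02) had negative log2 changes. MT2B went from 15.9 and 14.5 at 16.5 dpc (control and mutant) and 21.6 and 19.6 at 10 dpp to 59.8 ± 4.5 and 97.0 ± 7.5 at 20 dpp. RLTRETN_Mm, with 3.3 to 3.9 at the earlier ages, had 8.8 ± 1.0 and 10.2 ± 1.1 at 20 dpp. MT2A had 24.7 ± 2.2 and 36.8 ± 3.0 at 20 dpp, against 24.0 to 32.7 before, so its control level lay within the earlier range. MT2B over MT2A within a library was 0.60 to 0.66 at the earlier ages and 2.40 to 2.65 at 20 dpp, in both genotypes. MERVL-int over its LTR MT2_Mm was 24.1 to 28.8 at the earlier ages and 10.6 to 13.5 at 20 dpp.

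**Figure D5:**
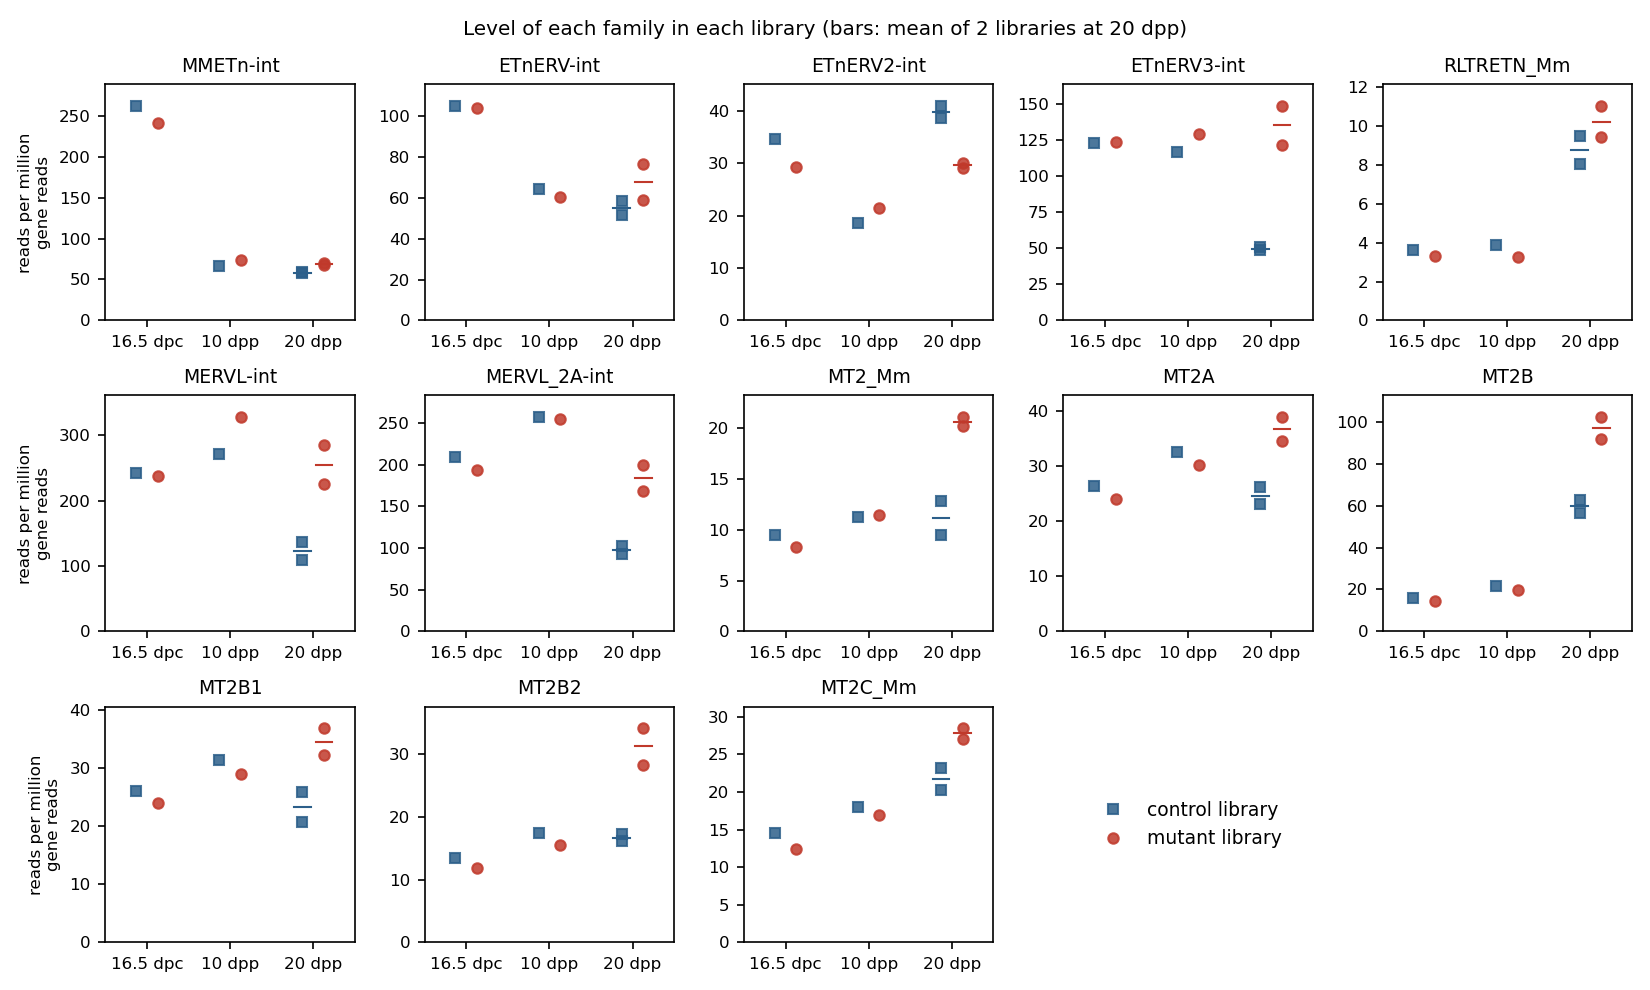
RPM, reads per 1000000 gene reads (y axis, linear from 0, own scale for each family) of the 13 families in the 8 libraries at 3 ages. Squares are control libraries, circles are mutant libraries, and short bars are means of the 2 libraries at 20 dpp. MMETn-int is highest at 16.5 dpc in both genotypes, and on this scale, where families in general are higher in the 20 dpp mutants, ETnERV3-int and MERVL-int are lowest in the 20 dpp controls.

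As a share of all family reads the 13 together held 3.37% and 3.38% at 16.5 dpc (mutant and control) and 2.62% and 2.71% at 10 dpp. At 20 dpp their shares were 1.61% and 1.95% in mutant libraries against 2.42% and 2.32% in controls. The mutant shares at 20 dpp were the lowest of all. Family reads were 5.52% and 5.12% of counted reads in those mutants and 2.51% and 2.34% in the controls. In RPM, where families in general were higher there, the 13 together had 942 and 1055 in those mutants against 623 and 556. L1Md_T rose 8.57-fold in the same libraries, and its part in the shares was not tested. The 4 ETn internal parts held 0.52% and 0.55% of family reads in those mutants and 0.80% and 0.83% in the controls.

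Among 547 families with 50 or more reads in every library, those most like MERVL-int over the 8 libraries were Tigger17a, a DNA transposon, and the old LINE-1 families L1MA8 and L1MEc. Their root mean square differences from it, in log2 values centred on each age, were 0.046, 0.069 and 0.070, where the median over candidates was 0.214. Nearest to MMETn-int were IAPLTR2a2_Mm, an IAP LTR, and the LINE-1 families Lx3C and Lx5, at 0.048, 0.052 and 0.056, with a median of 0.234.

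Genes known to silence these elements were read in the same libraries at 20 dpp, where 59.5% of all 17194 genes passed (4539 higher, 5689 lower, median log2 change 0.05). The list of histone methylation and KAP1 silencing factors had 36 of 37 names measured, of which 8 rose and 18 fell (median -0.19). Chaf1a, the large subunit of the chromatin assembly factor CAF-1 (mm10, chr17:56040439-56072289), fell by 2.42 on the log2 scale (limma adjusted p = 1.8e-05). Its mutant levels were 5215 and 6346 normalised reads and its control levels 34617 and 27373. Trim28, which encodes the corepressor KAP1 (chr7:12999114-13031035), fell by 1.30, and Mphosph8, of the HUSH silencing complex, fell by 1.09. Suv39h1, a histone H3 lysine 9 methyltransferase, rose by 1.42. Setdb1, the methyltransferase that KAP1 recruits, had a log2 change of -0.04 (adjusted p = 0.75), and was named after its value was seen. With total gene reads as the scale the split of this list was 18 higher and 7 lower. At 16.5 dpc and 10 dpp the single-library ratios of mutant over control were 1.06 and 1.01 for Chaf1a. They were 1.04 and 0.99 for Trim28, 1.12 and 1.00 for Mphosph8, and 0.94 and 0.95 for Suv39h1. The 20 dpp mutants lacked most of the late germ cell signal, and its part in the gene changes was not tested.

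Of 28 genes on a list of MERVL regulators 24 were measured, 5 rose and 9 fell (median -0.07), and with total gene reads 9 rose and 5 fell. Zfp42, which encodes a zinc finger protein that binds MERVL, fell by 2.36 on the log2 scale, from 3501 and 3153 normalised reads in the controls to 728 and 571. Pcgf6, of a Polycomb complex, fell by 1.97, Kdm5b, a histone H3 lysine 4 demethylase, by 1.41, and Nelfa, of the negative elongation factor, by 1.33. All 4 mutant pairs lay below their controls. Dux, the activator of MERVL in the two-cell embryo, was near the lowest listed counts, with 22.1 and 44.3 normalised reads in mutant libraries against 50.1 and 10.4 in controls, which overlapped (log2 change 0.42 ± 0.83, limma adjusted p = 0.68). Dux was likewise named after its values were seen. At 16.5 dpc and 10 dpp the single-library ratios of mutant over control were 1.63 and 0.79 for Zfp42. They were 1.07 and 1.06 for Pcgf6, 1.12 and 0.99 for Kdm5b, and 1.09 and 1.03 for Nelfa.

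Of 50 genes on a list of two-cell stage genes only 13 were listed at 20 dpp, 16 at 10 dpp and 19 at 16.5 dpc. The lowest count in the tables was 5 or 6 reads, depending on the library, so a gene below that in 1 library of an age had no value at that age. Of the 13, 1 rose and 3 fell (median 0.36), and with total gene reads 5 rose and 2 fell. Sp110, a nuclear body protein gene, rose by 1.57. Dnase1l3, a deoxyribonuclease gene, Chit1, a chitinase gene, and Eif1a, a translation initiation factor gene, had log2 changes of -3.51, -3.20 and -0.73 (limma adjusted p of 0.0028, 4.7e-04 and 0.0026). Of 8 DNA methylation genes 5 rose and 2 fell, and the 4 of lowest p went both ways. Uhrf1, which recruits maintenance methylation, fell by 1.21 on the log2 scale, and Dnmt3l, a cofactor of de novo methylation, fell by 2.76. Tet2, an enzyme that oxidises methylcytosine, rose by 1.86, and Dnmt3a, a de novo methyltransferase, rose by 1.05. At 16.5 dpc and 10 dpp the single-library ratios of mutant over control were 1.01 and 0.92 for Uhrf1. They were 1.86 and 0.83 for Dnmt3l, which had 43 and 54 reads at 10 dpp. Those of Tet2 were 0.84 and 1.04, and those of Dnmt3a 1.15 and 1.00. Of all 17194 genes 59.5% passed at 20 dpp and 6966 did not. Those that did not pass were 10 of 36 silencing genes and 10 of 24 MERVL regulators. They were 9 of 13 two-cell stage genes and 1 of 8 DNA methylation genes, lists that cover few genes. The share of the MERVL regulators was near that of all genes, and no list was tested against it.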

How the data were processed

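Whole testis RNA was sequenced in 8 libraries, and the authors deposited log2 values per gene and per repeat family. The submitters' processing notes name mm10, TopHat2 2.0.6, HTSeq 0.6.1 and Bowtie 1.0.0. How multi-mapping reads were counted is not given in the sources used here. Every deposited value equalled log2 of a whole read count over a library factor, plus a pseudocount of 1 (whole within 0.01 reads for 100% of 145760 values). The factors equalled median-of-ratios factors of each age, so each age was scaled on its own. The row of unassigned repeats (up to 0.0109% of family reads) did not enter any sum or test.

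The plan named limma for deposited log values and a count model for deposited counts. Because of this unit limma 3.58.1 (R 4.3.3) was run on the log2 values. Genes and families shared 1 trended fit, and p-values were adjusted over families and genes apart. At 20 dpp it had 2 residual and 5.21 prior degrees of freedom. Values on the log2(value + 1) scale understate changes of low features. Single libraries were compared by binomial intervals (SciPy 1.17.1, Python 3.11.15). Fits and intervals were tested on simulated data. The families, references and gene lists were chosen with earlier results of these data known. All 13 families, 3 references, the 3 nearest families of MERVL-int and MMETn-int, and up to 4 genes per list of lowest p among those that passed were named by rule. Gene coordinates are those of GENCODE M21. Replicate numbers at 20 dpp were not used as pairs in the main fits. No sequence of these families was used here.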

Additional observations from a re-analysis of the deposited data

How the results depend on the processing

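Other pseudocounts, a minimum mean of 50 reads and voom left the same 2 families called at 20 dpp. Scaling by total gene reads gave 8 calls, beside 374 families higher and 39 lower among 888. Limma without a trend gave 1, beside 43 higher and 62 lower. With 1 library left out, the median log2 change of the 13 ran from -0.16 to 0.18. On total gene reads the log2 change at 20 dpp turned positive for ETnERV-int (0.29), MMETn-int (0.24), MT2A (0.58), MT2B1 (0.57), MT2C_Mm (0.36) and RLTRETN_Mm (0.22), and for MMETn-int also over all ages (0.13), at 20 against 10 dpp (0.082) and at 20 dpp against 16.5 dpc (0.37). MT2B turned to -0.0028 with factors over families, and MT2B1 to 0.00074 with voom. Leaving out 1 library moved MT2A from -0.16 to 0.12, MT2B from -0.0192 to 0.23 and MT2B1 from -0.23 to 0.18. In the tests of genotype by age, total gene reads gave 1 call against 10 dpp, beside 58 families higher and 8 lower among 785. Against 16.5 dpc it gave 3, beside 101 higher and 13 lower. With 1 library left out, ETnERV2-int ran from -1.32 to -1.15 against 10 dpp, and ETnERV3-int from 0.71 to 0.95 against 16.5 dpc. Against L1Md_T and MMERVK10C-int, the unmoderated spread, chosen after seeing the data, gave 0 calls among the 13 and 0 among all 887 families. With 1 library left out, the median log2 value of the 13 ran from -3.60 to -2.62 against L1Md_T. It ran from -2.67 to -1.79 against MMERVK10C-int and from -2.40 to -0.85 against IAPEz-int. The cause was not tested.

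The replicate block gave 2 calls at 20 dpp, the same 2 families, with adjusted p-values of 0.0052 (ETnERV3-int) and 0.0039 (ETnERV2-int). Same-numbered libraries had a correlation of deviations of 0.024 over all features. With 1 difference between replicates per genotype this cannot decide whether the numbers pair the libraries, and the labels do not say. With 1 library per genotype, 16.5 dpc and 10 dpp have no measure of spread, and 2 against 2 libraries limit what the 20 dpp test can detect. Without a library, its group's spread is assumed to be that of the other group.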
